A study of Mus musculus with 6 samples.

Results

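Argonaute (Ago) footprints on the transcripts of Tet3 and 5 other genes of chromatin biology, Nsd1, Cbx5, Zmynd8, Stag2 and Hmga1, were compared between wild-type and APOBEC1-deficient macrophages. A footprint belonged to a gene when it overlapped that gene on its own strand in the GENCODE vM1 annotation of mouse build mm9. This gave 51 of the 6270 footprints in the deposited table: 18 on Tet3, 12 on Cbx5, 11 on Nsd1, 5 on Zmynd8, 3 on Stag2 and 2 on Hmga1. No footprint overlapped more than 1 of these 6 genes on its strand. The genes themselves were selected on occupancy values of these same data, Tet3 for its many footprints, and Cbx5, Nsd1 and Stag2 for single footprints with extreme ratios. Their differences between genotypes are therefore descriptions.

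The macrophages were grown from bone marrow of C57BL/6 littermates aged 6 to 12 weeks, wild-type (WT) or Apobec1-/- (KO), as 3 libraries per genotype, and were matured for 7 days with the growth factor M-CSF. APOBEC1 is an enzyme that deaminates cytidine to uridine in mRNA, mostly in 3′ UTRs. RNA bound to Ago was cross-linked, recovered with the antibody 2A8 and sequenced. The authors' value for each footprint, called occupancy, is a ratio of Ago signal to the RNA-Seq expression of the transcript, with 1 combined value per genotype. A difference in it can lie in the Ago signal or in the expression it is divided by, which cannot be told apart here. What the deletion removes from Apobec1 is left unsaid in the labels.

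Ago proteins carry miRNAs and are led to mRNAs by pairing of the miRNA seed, bases 2 to 8, with a complementary site, usually in the 3′ UTR. Bound mRNAs are then repressed or degraded. The 6 genes act at successive layers of chromatin. TET3 oxidises methylated cytosine in DNA, NSD1 methylates histone H3, CBX5 (heterochromatin protein HP1 alpha) binds methylated histone H3, and ZMYND8 reads acetylated and methylated histones. STAG2 is a subunit of cohesin, which holds DNA loops and sister chromatids, and HMGA1 binds AT-rich DNA in its minor groove.

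Because the table gives 1 value per genotype and no read counts, no difference below has a replicate check, a p-value or an SD, and sequencing depth is unknown. Where a number of libraries stands beside a value, it counts the libraries of that genotype that held the footprint. Among 8 annotated macrophage markers 6 had footprints (Emr1, Itgam, Csf1r, Fcgr1, Cd14 and Lyz2, with none on Cd68 or Mertk). None of the 4 T-cell, 3 B-cell, 5 neutrophil, 3 dendritic-cell or 4 fibroblast markers had one. Of 3 osteoclast markers Nfatc1 did. Only 2223 of 33924 annotated genes had footprints, so a marker without one does not show that a cell type was absent. Apobec1 had 3 footprints with a summed occupancy of 0.312 in KO and 0.372 in WT.

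Ago occupancy summed over a gene was almost the same in KO and WT for Tet3 and Nsd1, higher in KO for Cbx5 and Hmga1, and lower in KO for Zmynd8 and Stag2. Tet3 summed to 27.7 in KO against 27.3 in WT, which is 0.02 as a log2 ratio of KO over WT. Below, a signed value in parentheses after such a pair is this log2 ratio. Nsd1 summed to 13.1 and 13.7 (-0.07). Cbx5 summed to 10.3 in KO and 6.19 in WT (0.73), and Hmga1 to 1.95 and 1.19 (0.71). Zmynd8 summed to 4.98 in KO and 7.52 in WT (-0.59). Stag2 summed to 1.97 and 4.55 (-1.20) and was the one gene of the 6 past 2-fold, against 29.5% of the 2223 genes in the table. Some of these directions depended on the footprints kept. With only footprints held by at least 2 libraries of both genotypes Stag2 had 0.64, and Cbx5 had no footprint left. With either of its 2 footprints left out Hmga1 had -1.37 or 1.46. By the mean of its KO and WT sums Tet3 ranked 6 of 2223 genes, Nsd1 40, Cbx5 89, Zmynd8 141, Stag2 356 and Hmga1 698. The order of the 6 genes by sum differed between genotypes, with Cbx5 above Zmynd8 in KO and below it in WT.

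Single footprints differed far more than the sums. Of the 51, 30 were higher in KO (58.8%, against 48.7% of all footprints) and 21 lower. A 2-fold difference was reached by 14 higher in KO and 13 lower, so by 27 of 51 (52.9%). Of all 6270 footprints 43.1% passed 2-fold, 18.9% higher in KO and 24.2% lower. Since some of the genes were picked for such ratios, nothing is read from the members' larger share. The Tet3 footprint 5046 to 5143 nt into its 3′ UTR just passed 2-fold (1.00), and the one at 3482 to 3638 nt just missed it (0.95). The median log2 ratio was 0.27 over the 51 footprints and -0.04 over the table. Median occupancy was 0.877 in KO and 0.851 in WT, against 0.377 and 0.406 over the table.

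**Figure D1:**
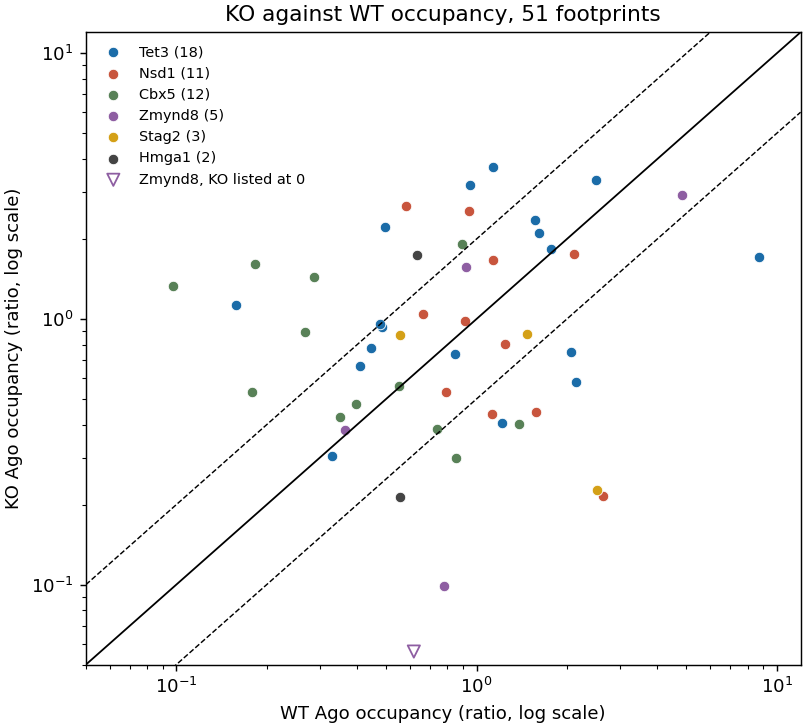
KO occupancy (vertical, log scale) against WT occupancy (horizontal, log scale) of the 51 footprints, coloured by gene; the solid line marks equal values and the dashed lines 2-fold. 14 footprints lie above the upper dashed line and 13 below the lower one, and an open triangle at the bottom marks the Zmynd8 footprint listed at 0 in KO.

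Members, like the table as a whole, were found in more WT than KO libraries. At least 2 WT libraries held 44 of the 51 (86.3%, against 94.9% of the table), and at least 2 KO libraries held 26 (against 40.1%). No KO library held 14 of them (27.5%, against 27.9%), although 13 of these 14 had a KO value above 0. The sources used here do not say how such values arose. An identical KO value was listed for another footprint of the table in 22 of the 51, against 31.7% overall. All 6 libraries held 2 members (5.89% of the table), the Tet3 footprint at 4833 to 4908 nt and the last footprint of Zmynd8. Of the 13 members at least 2-fold lower in KO, 8 were held by no KO library and 2 by at least 2. Of the 14 members at least 2-fold higher in KO, 11 were held by at least 2 KO libraries and 6 by only 1 WT library. At least 2 libraries of both genotypes held 19 members, against 35% of the table. Of these 19, 5 were at least 2-fold higher in KO and 2 at least 2-fold lower, against 26.2% and 5.01% of the 2196 such footprints in the table. A footprint entered the table through at least 2 libraries of either genotype. Through KO libraries alone entered 7 members, 3 on Cbx5 and 2 each on Tet3 and Nsd1, against 5.12% of the table. Through WT libraries alone entered 25, among them 9 on Cbx5, 6 on Nsd1 and 4 on Tet3. Members of the first kind are high in KO by selection and those of the second kind high in WT. This holds below for every footprint held by at least 2 libraries of only 1 genotype.

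Tet3 carried 18 footprints, a number exceeded only by Qk (26), Slc5a3 (22) and Slc43a2 (19) among 2223 genes. All 18 lay in the 3′ UTR on the minus strand of chromosome 6 (ENSMUSG00000034832.8), within its 5672 nt, the first at 448 nt and the last ending at 5143 nt. They covered 26.1% of the UTR, with a median gap of 149 nt, and 1 pair overlapped by 32 nt and so shares sequence. This is 3.17 footprints per kb, rank 115 among the 375 genes with at least 5 footprints in 3′ UTRs, whose median was 2.62. Of 2 annotated Tet3 transcripts with a 3′ UTR, 1 reached these footprints. By number of libraries KO and WT were alike on Tet3, with a mean of 2 of 3 libraries per footprint in each.

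One footprint dominated Tet3 in WT. At chr6:83315208-83315272, 2767 to 2831 nt into the UTR, occupancy was 8.72 in WT (3 libraries) and 1.71 in KO (2 libraries), a log2 ratio of -2.35. It made up 31.9% of the Tet3 sum in WT and 6.18% in KO, where it ranked 8 of 18. Without it the Tet3 sum had a log2 ratio of 0.48 in place of 0.02. The strongest in KO was at 703 to 774 nt, with 3.72 in KO and 1.13 in WT (2 libraries each; 1.71). The second in both genotypes, at 4833 to 4908 nt, had 3.33 in KO and 2.49 in WT and was found in all 6 libraries.

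In KO, Tet3 occupancy was spread over several footprints of like size. The footprint at 3688 to 3762 nt had 3.19 in KO (3 libraries) and 0.951 in WT (2 libraries), a log2 ratio of 1.75. The one at 1318 to 1402 nt had 2.23 in KO against 0.495 in WT (2.16), and the one at 3188 to 3275 nt had 1.13 and 0.158 (2.82). These last 2 were each found in 3 KO libraries and 1 WT library, so they entered through KO libraries alone and are high there by selection. The 3 lie in different stretches of the UTR.

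Besides the dominant site, 3 Tet3 footprints were at least 2-fold lower in KO. Those at 1619 to 1706 nt (0.751 in KO and 2.06 in WT; -1.46) and 1856 to 1921 nt (0.579 and 2.15; -1.89) are neighbours. The other lay at 4532 to 4608 nt (0.405 and 1.21; -1.58). The footprint at 1619 to 1706 nt was held by 2 libraries of each genotype. Those at 1856 to 1921 nt and 4532 to 4608 nt were each held by 1 KO library and 2 WT libraries, and so entered through WT libraries alone. The footprints at 448 to 513 nt (2.10 in KO and 1.62 in WT), 4397 to 4464 nt (1.83 and 1.77) and 4640 to 4707 nt (2.36 and 1.57) were high in both genotypes and within 2-fold. The remaining footprints ranged from 0.306 to 0.957 in KO, and in WT from 0.329 to 0.851. Of them only the one at 2187 to 2272 nt was held by no KO library.

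**Figure D2:**
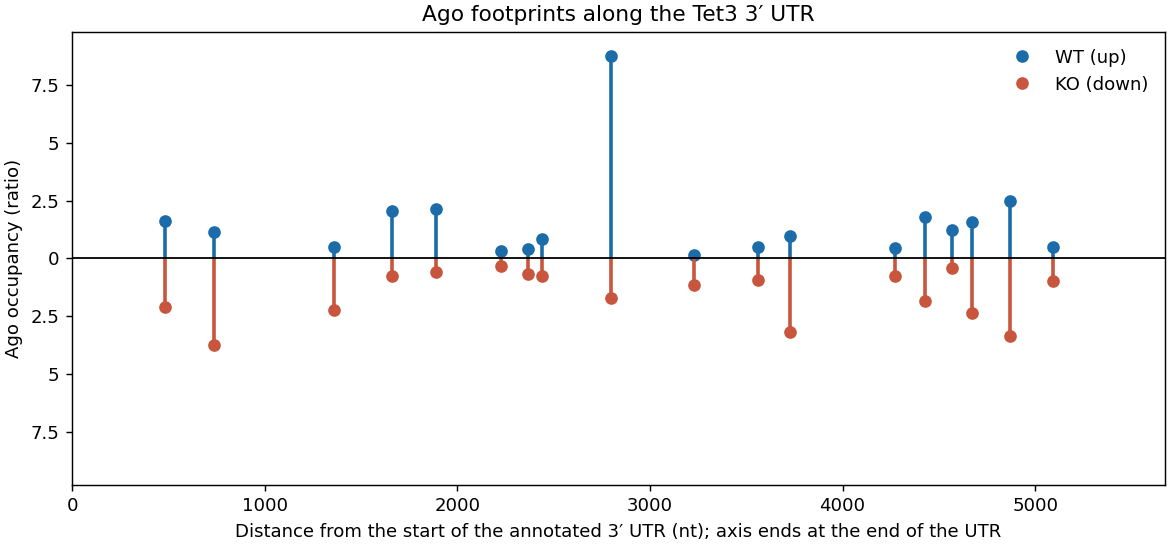
Occupancy of the 18 Tet3 footprints by distance of their centres from the start of the annotated 3′ UTR in nt, with WT drawn upward and KO downward on the same linear scale. The WT value of 8.72 near the middle of the UTR stands above all others, while KO has 5 values between 2.23 and 3.72 spread along the UTR.

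Sites for 22 miRNA families common in mammalian cells were sought in the RNA strand as 7 bases complementary to miRNA bases 2 to 8. Of the 51 member footprints 12 (23.5%) held at least 1, against 17.2% of the table. With shorter sites of 6 bases (miRNA bases 2 to 7) the shares were 43.1% and 44.8%, in the other order. The longest 3′ UTRs of the 6 genes held 66 of the 7-base sites in all, of which 16 (24.2%) lay inside footprints that covered 17.5% of their length. Tet3 held 29, with 7 (24.1%) inside its footprints, which covered 26.1% of its UTR. The overlapping miR-16 and miR-103 sites of Cbx5 described below are counted separately. Sites and coverage both differ between the genes, so nothing is read from the pooled shares. A match is a description of the letters and does not show which miRNA was bound.

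The miR-29 family, known for repressing TET and DNA methyltransferase genes, had the most matches. Its site was in 3 Tet3 footprints and 1 Nsd1 footprint, so in 4 of 51 (7.84%), against 0.893% of the table. The whole Tet3 3′ UTR held 8 such sites, 5 of them outside any footprint, and Nsd1 held 2. The sites are shown because they mark footprints that were higher in KO. Capitals mark the seed in the miRNA (from RefSeq, GRCm38.p6 table) and its complement in the mm9 sequence, written 5′ to 3′ on the RNA strand.
mmu-miR-29a-3p: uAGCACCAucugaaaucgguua
Tet3, chr6:83316655-83316684, minus strand: tgaaaatgagaacgtTGGTGCTttaatttc
Tet3, chr6:83314323-83314352, minus strand: aaatagtctaataaaTGGTGCTatggtgtt
Tet3, chr6:83313764-83313793, minus strand: aaggccgcttttagtTGGTGCTaaacttct
Nsd1, chr13:55418714-55418743, plus strand: aatacaatgtaatgaTGGTGCTaatctcat

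All 4 footprints with a miR-29 site were higher in KO, with log2 ratios of 2.16, 1.75 and 0.80 on Tet3 in the order shown and 1.43 on Nsd1. The first was held by 3 KO libraries and 1 WT library, so it entered through KO libraries alone and is high there by selection. The third was held by only 1 KO library and by 2 WT libraries. Among all footprints with the site, 34 of 56 (60.7%) were higher in KO, with a median of 0.35, against 48.7% of all footprints. In the last 3 windows the site is followed by A, the base opposite the first base of the miRNA.

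The dominant WT footprint of Tet3 held a site for miR-16, whose family restrains the cell cycle, with its centre 2 nt from the centre of the footprint. A miR-16 site was also in a Cbx5 footprint, where it overlapped a miR-103 site in all but 1 base, so that the letters do not tell these families apart. The Cbx5 footprint also held a miR-181 site. The Tet3 footprints at 3688 to 3762 nt and 4532 to 4608 nt held miR-23 sites. The Cbx5 window is shown for miR-16 and then for miR-103.
mmu-miR-16-5p: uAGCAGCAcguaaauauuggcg
mmu-miR-103-3p: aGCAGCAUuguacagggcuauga
mmu-miR-23a-3p: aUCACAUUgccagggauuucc
Tet3 miR-16, chr6:83315231-83315260, minus strand: atatcccccatccctTGCTGCTgaaggctt
Cbx5 miR-16, chr15:103023207-103023236, minus strand: ttaacccctcatcaaTGCTGCTagttcaga
Cbx5 miR-103, chr15:103023208-103023237, minus strand: cttaacccctcatcaATGCTGCtagttcag
Tet3 miR-23, chr6:83314306-83314335, minus strand: gtgctatggtgtttcAATGTGActgtccct
Tet3 miR-23, chr6:83313464-83313493, minus strand: ttgcttttgaataaaAATGTGAatctcctc

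Footprints with the same family's site did not all differ in the same direction. The miR-16 footprint of Tet3 was lower in KO (-2.35) and that of Cbx5 higher (0.890 in KO and 0.269 in WT; 1.72). The Cbx5 footprint was held by 2 KO libraries and 1 WT library, so it entered through KO libraries alone and is high there by selection. The miR-23 footprints of Tet3 had 1.75 and -1.58, the second held by only 1 KO library and by 2 WT libraries. The first of them also holds a miR-29 site, so the 2 families share its value. In the whole data set, 68 of 125 footprints with a miR-16 site and 32 of 95 with a miR-23 site were higher in KO.

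Nsd1 carried 11 footprints in its 3′ UTR on the plus strand of chromosome 13 (ENSMUSG00000021488.6), with sums that were close in KO and WT but with strengths in another order. The first footprint straddled the start of the UTR, and the last ended at 4144 of 4600 nt. The strongest in WT, at chr13:55417300-55417386 (2214 to 2300 nt), had 2.64 in WT (3 libraries) and 0.215 in KO (no library), a log2 ratio of -3.61, and was the weakest in KO. Its KO value was listed identically for another footprint as well. The footprint entered through WT libraries alone and is high there by selection. The strongest in KO, at 389 to 460 nt, had 2.67 in KO (2 libraries) and 0.583 in WT (1 library; 2.19), and was the weakest in WT. It entered through KO libraries alone and is high there by selection.

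The second strongest of Nsd1 in KO, at 3603 to 3685 nt, is the footprint with the miR-29 site (2.55 in KO and 0.946 in WT; 2 libraries each; 1.43). At 1249 to 1330 nt WT had 1.58 (3 libraries) and KO 0.446 (no library), a log2 ratio of -1.82. At 4075 to 4144 nt WT had 1.13 (2 libraries) and KO 0.439 (1 library), a log2 ratio of -1.36. Only 31 nt before the strongest WT footprint lay one that was near in value in both genotypes, at 2098 to 2182 nt (1.75 in KO in 2 libraries, 2.10 in WT in 3; -0.26). The other 5 Nsd1 footprints were within 2-fold, from 0.533 to 1.67 in KO, and in WT from 0.662 to 1.24. One of them, at 1466 to 1537 nt, was held by 3 KO libraries and 1 WT library, with 1.67 and 1.14, and holds a site for miR-30.

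Cbx5 carried 12 footprints in its 3′ UTR of 8100 nt on the minus strand of chromosome 15 (ENSMUSG00000009575.8), 9 of them higher in KO. No footprint was held by at least 2 libraries of both genotypes. At least 2-fold higher values in KO were found for 6 footprints and lower values for 2. The last footprint of the UTR, at 7629 to 7756 nt (chr15:103022319-103022446), had 1.33 in KO against 0.0972 in WT (3.75). The 2 before it, at 6289 to 6359 nt and 6829 to 6922 nt, had 1.44 and 0.890 in KO against 0.288 and 0.269 in WT (2.32 and 1.72). These 3 are the Cbx5 footprints held by 2 KO libraries and 1 WT library, and the other 9 were each held by 2 WT libraries and at most 1 KO library. The KO values at 7629 to 7756 nt and 6289 to 6359 nt were listed identically for another footprint as well.

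Lower in KO were 3 Cbx5 footprints, each held by no KO library. The neighbours at 5044 to 5131 nt (0.403 in KO and 1.39 in WT; -1.78) and 5217 to 5292 nt (0.300 and 0.855; -1.51) were past 2-fold, and the second holds a miR-27 site. The remaining one, at 3157 to 3259 nt, had 0.384 and 0.738 (-0.94). The strongest in KO lay at 2549 to 2614 nt (1.92 in KO in 1 library, 0.898 in WT in 2; 1.10). The footprint at 3962 to 4035 nt had 1.61 in KO and 0.183 in WT (3.13), again with 1 KO library. That at 499 to 567 nt had 0.531 and 0.178 (1.57). The other 3, at 88 to 251, 4190 to 4262 and 4784 to 4854 nt, had KO values from 0.429 to 0.559 and WT values from 0.351 to 0.553.

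The annotation gives Cbx5 3 transcripts with 3′ UTRs of different ends. Only 1 footprint lay in the part that all 3 share, with 0.429 in KO and 0.351 in WT. The longest alone held 9 footprints, with summed occupancy of 7.39 in KO and 4.77 in WT. The 2 footprints reached by 2 transcripts had 2.45 and 1.08. Each of these stretches had a higher sum in KO. The stretch of 9 includes the 3 Cbx5 footprints that entered through KO libraries alone. These had 1.44, 0.890 and 1.33 in KO against 0.288, 0.269 and 0.0972 in WT and are high in KO by selection. The other Cbx5 footprints entered through WT libraries alone. Nothing is therefore read from the direction of these sums. Which transcript's expression the authors divided by is not stated in the sources at hand.

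**Figure D3:**
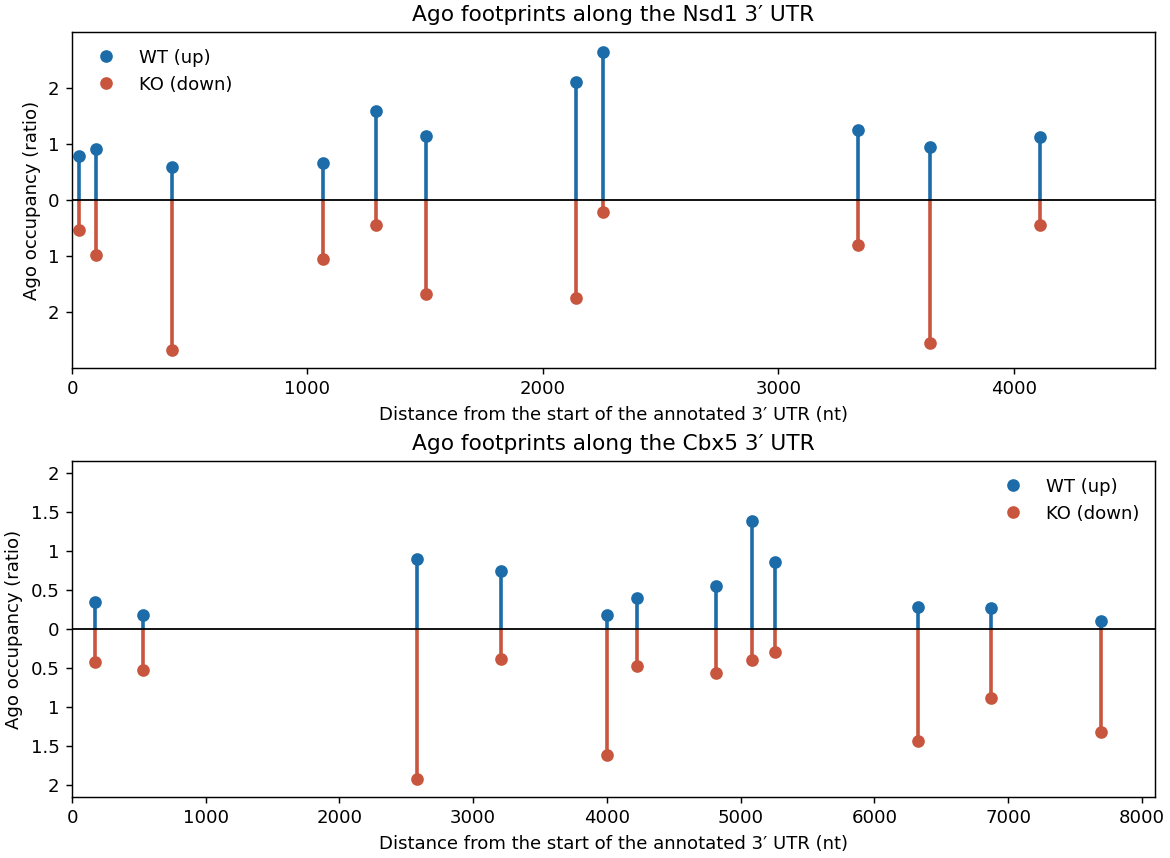
Occupancy of the 11 Nsd1 footprints (top) and the 12 Cbx5 footprints (bottom) by distance of their centres from the start of the annotated 3′ UTR in nt, with WT upward and KO downward on a linear scale within each panel. The tallest WT bar of Nsd1 (2.64) stands over the shortest KO bar (0.215), and the last 3 bars of Cbx5 are taller in KO.

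How far the strengths were rearranged within a gene was measured as the share of summed occupancy that would have to move between footprints to turn one genotype's profile into the other's. It was 39.9% for Tet3, 44.3% for Cbx5, 37.1% for Nsd1 and 22.0% for Zmynd8. Over the 383 genes with at least 5 footprints the median was 25.6% and the quartiles 19.3% and 33.0%. Across its footprints Spearman's rho between KO and WT occupancy was 0.30 for Tet3 (18 footprints), -0.42 for Cbx5 (12) and -0.45 for Nsd1 (11). The median over the 97 genes with at least 10 footprints was 0.47. Cbx5 and Nsd1 were picked for footprints with extreme ratios, which by themselves raise the displaced share and lower rho, so nothing is read from their distance to these medians. Footprints of a gene share libraries and a transcript and are not replicates, and footprints that entered through 1 genotype alone are high in that genotype by selection.

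Zmynd8 (ENSMUSG00000039671.11, chromosome 2, minus strand) carried 3 footprints in its 3′ UTR and 2 in coding exons. Most of its occupancy lay in the last footprint, 1299 to 1367 nt into the longest 3′ UTR (chr2:165609726-165609794), found in all 6 libraries with 2.93 in KO and 4.84 in WT (-0.72). The other footprints of the UTR were also lower in KO. One had 0.0989 in KO against 0.782 in WT (-2.96), and the other was listed at 0 in KO and had 0.618 in WT, and neither was held by a KO library. The coding footprints were not lower. At chr2:165668304-165668366 KO had 1.57 and WT 0.922 (2 libraries each; 0.76), and at chr2:165677495-165677667 they had 0.383 and 0.364 (no KO library and 2 WT libraries). With the 3′ UTR alone the Zmynd8 sum had a log2 ratio of -1.04, past 2-fold, in place of -0.59. No Zmynd8 footprint held a site of the 22 families.

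Stag2 (ENSMUSG00000025862.8, chromosome X, plus strand) carried 3 footprints spaced along its 3′ UTR, with a lower log2 ratio at each next one. The first, 81 to 178 nt into the UTR, had 0.869 in KO and 0.557 in WT (2 libraries each; 0.64). The middle one had 0.877 in KO (1 library) and 1.47 in WT (3 libraries; -0.75). The last, at chrX:39629709-39629787, had 0.228 in KO (no library) and 2.52 in WT (2 libraries; -3.46). It made up 55.4% of the sum in WT and 11.5% in KO, and it entered through WT libraries alone and is high there by selection. Without it the Stag2 sum had a log2 ratio of -0.22 in place of -1.20, and 2-fold was no longer reached, nor was it with a pseudocount of 1 (-0.90). The KO value of every Stag2 footprint was listed identically for another footprint as well. The one Stag2 footprint held by at least 2 libraries of both genotypes, the first, was higher in KO. This last footprint holds a site for miR-22, centred 3 nt from its middle.
mmu-miR-22-3p: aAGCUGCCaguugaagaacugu
Stag2 miR-22, chrX:39629733-39629762, plus strand: attttgcgaggcttaGGCAGCTagacatcg

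Hmga1 (ENSMUSG00000046711.9, chromosome 17, plus strand) carried 2 footprints that differed in opposite directions. At 338 to 407 nt of the UTR KO had 1.74 (3 libraries) and WT 0.632 (2 libraries), a log2 ratio of 1.46. At 798 to 864 nt KO had 0.214 (no library) and WT 0.556 (2 libraries; -1.37). This second footprint entered through WT libraries alone and is high there by selection, and its KO value was listed identically for another footprint. The second holds a site for let-7, the family known for repressing the HMGA genes, 24 nt from its centre. It was the only let-7 site of the Hmga1 3′ UTR and the only one in a member footprint. The first footprint lies in the 3′ UTR of 5 of 6 annotated transcripts and the second in 3.
mmu-let-7a-5p: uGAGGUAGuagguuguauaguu
Hmga1 let-7, chr17:27700222-27700251, plus strand: tcctctgttcacaaaCTACCTCtggacggt

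Sites for miR-27 were in 2 members, the Cbx5 footprint above (-1.51) and the strongest WT footprint of Nsd1 (-3.61). Neither was held by a KO library, so both entered through WT libraries alone and are high there by selection. In the whole data set, 43 of 100 footprints with this site were higher in KO. The windows are shown because they lie in footprints that were among the strongest of their genes in WT.
mmu-miR-27a-3p: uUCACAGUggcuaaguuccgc
Nsd1 miR-27, chr13:55417350-55417379, plus strand: tgtttcatgaaataaACTGTGAagtggggg
Cbx5 miR-27, chr15:103024798-103024827, minus strand: ttcttggtgttggcaACTGTGAccctaaca

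The ratio went with base composition over the members and over the table, but hardly within Tet3 or Nsd1. Nor did it among members held by at least 2 libraries of both genotypes. Median G+C content was 44.7% in the members and 42.9% over the table. It was 47.9% in the members at least 2-fold higher in KO and 38.6% in those at least 2-fold lower. It was 40.8% in the members that no KO library held and 48.7% in those held by at least 2. Spearman's rho between G+C content and log2 ratio was 0.46 over the 51 members and 0.32 over all 6270 footprints. Within genes it was 0.80 for Cbx5 (12 footprints), 0.16 for Tet3 (18) and -0.08 for Nsd1 (11). Among the 19 members held by at least 2 libraries of both genotypes it was -0.10. The part of base composition in the differences was not tested. The AU-rich pentamer ATTTA was in 3 members (5.88%), 2 on Tet3 and 1 on Nsd1, against 11.9% of the table.

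**Figure D4:**
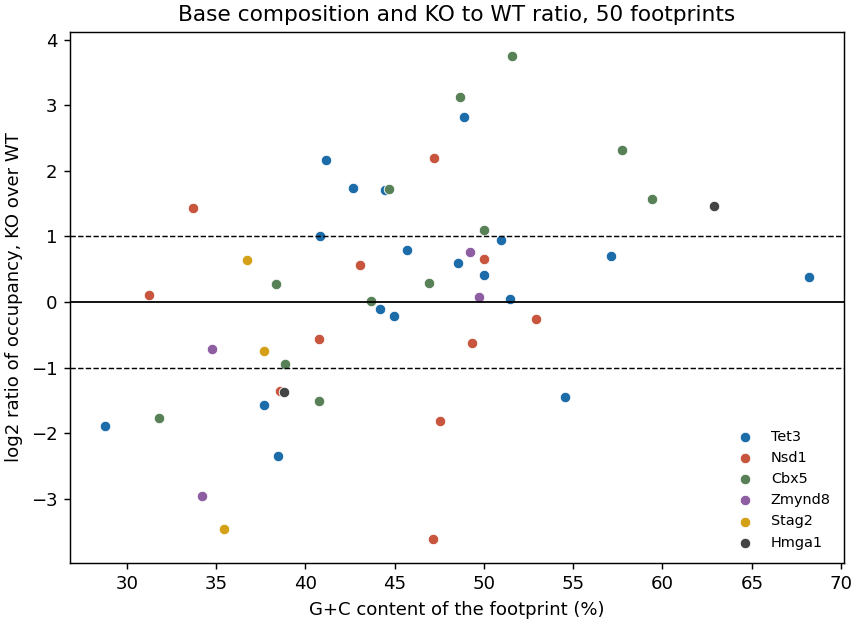
log2 ratio of KO over WT occupancy (vertical) against G+C content of the footprint in percent (horizontal) for the 50 members above 0 in both genotypes, coloured by gene, with dashed lines at 2-fold. Cbx5 footprints go from low to high ratio with G+C content (rho 0.80), whereas the Tet3 and Nsd1 footprints show little order (0.16 and -0.08).

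Other chromatin genes were taken from 9 groups, written with earlier results of these data known. Of 161 annotated symbols 47 had footprints, the 6 members included. By summed occupancy 21 were higher in KO and 26 lower, with 3 at least 2-fold higher and 10 at least 2-fold lower. Over all genes 47.8% were higher, 11.7% at least 2-fold higher and 17.9% at least 2-fold lower. The median log2 ratio was -0.09 in the 47 genes and -0.04 over all genes. With only footprints held by at least 2 libraries of both genotypes the balance turned in both sets. Of the 24 chromatin genes then left, 16 were higher in KO and 8 lower, 7 at least 2-fold higher and 0 at least 2-fold lower, with a median of 0.47. Of all 1097 genes left 71.3% were higher, 20.8% at least 2-fold higher and 3.56% at least 2-fold lower, with a median of 0.38.

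In what follows a value given alone for a gene is the log2 ratio of KO over WT of its summed occupancy. Among genes of DNA methylation the de novo methyltransferase Dnmt3a, with 12 footprints, had 7.32 in KO against 6.39 in WT (0.20), and the maintenance enzyme Dnmt1 had 0.18. The methyl-CpG binding gene Mbd2 was lower in KO (-0.89). Tet1 and Tet2 had no footprint. Of 9 histone methyltransferases none was at least 2-fold higher and 1, Mll1, was at least 2-fold lower (-1.40). Mll1 had 1 footprint, held by no KO library. Setd2, which like Nsd1 methylates histone H3, had the highest ratio (0.93), Setd1b had 0.17 and Mll2 had -0.83. The 3 measured demethylases were all higher in KO, with Kdm3b at 1.06, Kdm2a at 0.63 and Jmjd1c at 0.54.

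In the HP1 and Polycomb group, Cbx5 was the one HP1 gene with footprints. Asxl1 had the highest ratio (1.82, from 1 footprint), and the Polycomb genes Phc3 (-1.39) and Rnf2 (-1.26) the lowest. Phc3 and Rnf2 also had 1 footprint each, and that of Rnf2 was held by no KO library. Among readers of histone marks, the bromodomain gene Brd2 had 0.19. Lowest were Brd3 (-1.51) and Ing1 (-3.27), neither with a footprint held by a KO library. Zmynd8 lay between Brd2 and Brd3.

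In the cohesin group, 4 of 5 genes were lower in KO, 3 of them past 2-fold. Rad21, the subunit cleaved at anaphase, had 0.194 in KO and 0.948 in WT over 4 footprints (-2.28), none of them held by a KO library. Stag2 followed (-1.20). Wapal, which releases cohesin from DNA, had -1.08. Mau2, a cohesin loader subunit, had -0.09, and Ctcf, which stops cohesin on DNA, had 0.76 (1 footprint, no KO library). No footprint of Rad21, Wapal, Mau2 or Ctcf was held by more than 1 KO library. With footprints of at least 2 libraries of both genotypes, Stag2 was the one cohesin gene left, and it was higher in KO (0.64). Of the high mobility group Hmga2 had 11.7 in KO and 12.6 in WT from 2 footprints (-0.11). Hmgb2 had -0.35 (1 footprint, no KO library), so Hmga1 was the one gene of 3 that was higher.

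Of the remodellers Smarcc2 (1.20) and Atrx (0.82; 1 footprint) were highest and Chd4 (-1.30) and Baz2a (-0.98) lowest. Chd4 and Baz2a had 1 footprint each, which no KO library held. Of the acetyltransferases and deacetylases with their partners, the acetyltransferase Myst3 had 0.03. The corepressor Ncor1 (-0.85; 1 footprint, no KO library) and the acetyltransferase Ep300 (-2.50; 0.274 in KO and 1.56 in WT) were lowest.

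**Figure D5:**
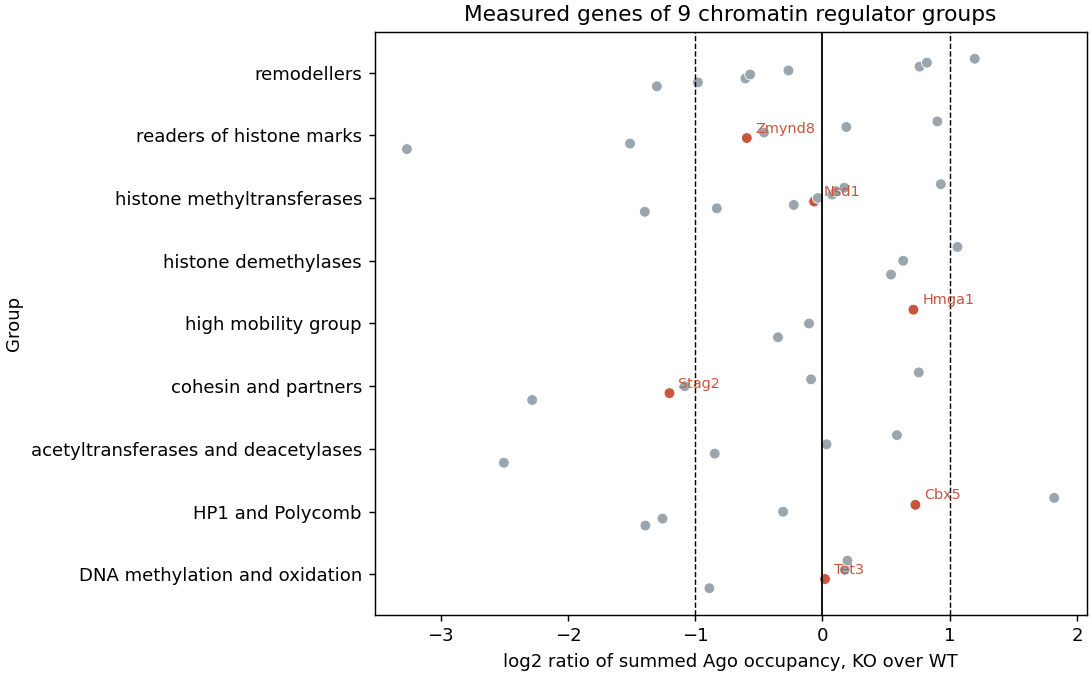
log2 ratio of summed Ago occupancy, KO over WT, of the 47 measured genes of 9 chromatin regulator groups, 1 point per gene, with the 6 members in red and named and dashed lines at 2-fold. The points lie on both sides of 0 in every group but the demethylases, and 3 of the 5 cohesin points lie left of the lower 2-fold line, although only Stag2 among them had a footprint held by at least 2 KO libraries.

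The genes nearest to Tet3 in summed occupancy of KO and WT, by Euclidean distance of these 2 values on the log2 scale among 382 genes with at least 5 footprints, were Plekhm3, Qk and Ccnd1. Plekhm3 had 35.1 in KO and 26.4 in WT over 16 footprints (distance 0.34). Qk had 24.4 and 33.6 over 26 (0.35), and Ccnd1 30.8 and 19.9 over 10 (0.49). With only 2 values, this likeness covers level and ratio and no pattern across conditions.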

How the data were processed

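Ago HITS-CLIP libraries of bone-marrow-derived macrophages, 3 WT and 3 KO, were grouped by title and genotype in the labels. The series' design text says that the authors split reads by length, aligned them to mm9, joined mRNA reads into clusters, took a footprint around each cluster peak and normalized it to RNA-Seq expression. The deposited occupancy is therefore a ratio, with 1 combined value per genotype. A second deposited pair of columns counts in how many libraries, per genotype, the footprint was found. The submitters' processing notes name Bowtie 0.12.8 and bedtools. The sources used here do not say how libraries were combined and scaled, and the table gives no depth.

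Footprints were placed on NCBIM37 (the mm9 assembly) with GENCODE vM1, taking 3′ UTR over coding sequence, coding sequence over 5′ UTR, and exon over intron where a footprint touched several on its strand. Coordinates count from 1, and UTR positions count from the first base of the longest annotated 3′ UTR. The log2 ratio of KO over WT used a pseudocount of 0.00161, 50% of the smallest value above 0, which understates differences of low values. Gene values are sums over footprints. With 1 value per genotype a 2-fold rule replaced any test. The members, gene groups and miRNA families were chosen with earlier results of these data known. Every member is accounted for. Of the other genes in each group the 2 highest and 2 lowest ratios were named, except for a few genes not reported here. Wapal was named after its value was seen. The 2-fold count and the site search were run on simulated data as a check of the code. There 200 of 200 changed footprints (4-fold in either direction) passed 2-fold and 0 unchanged ones did. How often unchanged footprints pass 2-fold in the measured data was not tested. Alternatives covered the pseudocount, filters on occupancy and on libraries, the summary over footprints, and the site definition. Scripts used Python 3.11.15 with pandas 2.3.3, numpy 2.4.6 and scipy 1.17.1.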

Additional observations from a re-analysis of the deposited data

How the results depend on the processing

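Of 55 values recomputed under other settings, 41 stayed within 1.5-fold of the reported one, 13 moved by more, and Stag2, past 2-fold, reversed once. Of the log2 ratios 6 took another sign, most from values near 0: Tet3 under 2 settings, Nsd1 under 2, Stag2 and Hmga1 under 1 each. Taken by the strongest footprint in place of the sum, the log2 ratio was -2.35 for Tet3, -3.46 for Stag2 and 1.46 for Hmga1. With footprints held by at least 2 libraries of both genotypes, Stag2 reversed to 0.64 and Hmga1 went to 1.46, each from 1 footprint, Nsd1 turned to 0.25 and Tet3 to -0.02, and Cbx5 had no footprint left. Keeping only footprints whose mean occupancy reached the median of the table also gave 1.46 for Hmga1. Without the single footprint that moved the ratio most, an alternative chosen after the data were seen, Stag2 had -0.22, Hmga1 -1.37, Nsd1 0.22 and Cbx5 1.04, the last now past 2-fold. With a pseudocount of 1 Stag2 had -0.90, short of 2-fold, and 6 member footprints were 2-fold higher and 3 lower in KO. Among members held by at least 2 libraries of both genotypes 5 were 2-fold higher and 2 lower, and 16 chromatin genes were higher and 8 lower, where 71.3% of all genes were higher. Requiring 2 libraries of both genotypes drops, by its construction, footprints that were rarely found in KO. Sites of 6 bases were in 22 members. The filtered sets held fewer footprints, and the causes of these shifts were not tested. No paired analysis was possible because the table holds 1 combined value per genotype, so no replicate could be left out or blocked either.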
